A study of Homo sapiens with 7 samples.

Results

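The step from Day 2 to Day 3 of JMJD3c induction was analysed by RNA-seq in JMJD3c-hESCs. The 2 libraries were chosen by their labels, out of 7 in the series, and every gene on a chromosome was compared. JMJD3c is the catalytic domain of the H3K27 demethylase JMJD3 (KDM6B), here tagged with HA and given a nuclear localisation signal. The JMJD3c-hESCs are a stable line of SEES-3 human embryonic stem cells in which a piggyBac Tet-On construct, together with a reverse Tet transactivator, expresses HA-JMJD3c and a βgeo reporter when doxycycline (Dox) is present. Both libraries came from this line with Dox at 1 µg/ml, in StemFit AK-03 medium on iMatrix-511, a medium for undifferentiated culture. The other 5 libraries were the uninduced line (Day 0), its Days 1 and 4 of Dox, and JMJD3c mut-hESCs, which carry a catalytically inactive form, both uninduced and after 4 days of Dox. Each condition had 1 library from 1 stable line, so differences below could not be set against the spread between cultures, and no statistical test was made. Both days shared Dox, so the time since its addition and the time under JMJD3c cannot be told apart. Each library is bulk RNA, so a level that differs between days cannot be divided into more cells that express a gene and more RNA per cell.

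H3K27me3 is a repressive histone mark laid down by the Polycomb complex PRC2, and in embryonic stem cells it lies, together with the active mark H3K4me3, on the promoters of many developmental regulators. JMJD3 removes it. Definitive endoderm forms through the primitive streak: brachyury (T), EOMES and MIXL1 mark the streak and mesendoderm, and SOX17, GATA6, CXCR4 and CER1 follow as cells become endoderm. NODAL and Wnt signals drive this path, and secreted inhibitors such as CER1, LEFTY1 and DKK4 limit them.

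Expression is given in FPKM (fragments per kilobase of transcript, scaled to the number of mapped fragments), with the lower and upper bound of the 95% interval that Cufflinks gave for each estimate. These bounds describe the counting and assignment of reads within a library and not the variation between cultures. The files give no read counts. The steps between low values of single-exon genes put the depth at about 3210000 reads at Day 2, where 70.3% of 37 such values came within 0.05 of a whole read, and 3430000 at Day 3 (80.8% of 26). Scaled to Day 2 by the ratios of low values, the estimate ran from 1770000 at Day 0 to 3650000 over the 7 libraries. For Day 0 the steps themselves gave 3550000 instead. Numbers of reads below rest on the estimates for Days 2 and 3. Of 22670 entries, the 20187 on chromosomes were used, and the other 2483 were listed at 0. Of these, 10132 entries reached more than 4 FPKM at Day 2 or Day 3. A gene was called higher at Day 3 when its ratio to Day 2 was above 2, its level at Day 3 above 4 FPKM and the 2 intervals apart, and called lower by the same rule with the days exchanged. A start was a gene under 1 FPKM at Day 2 that reached 1 FPKM or more at Day 3 with a ratio above 2 and intervals apart, and a stop was the reverse. Log2 ratios used log2(FPKM + 1), on which the change of a low gene looks smaller than it is.

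The step was small in number of genes. Between Day 2 and Day 3, 53 genes were called higher (0.523% of those over 4 FPKM) and 40 were called lower (0.395%). Across all 20187 entries, 17 were starts (0.0842%) and 21 were stops (0.104%). The median log2 ratio of the 10132 genes was 0.04. The intervals did much of the selecting: the fold and the level alone were passed by 198 genes upwards (1.95%) and 160 downwards (1.58%). The genes called higher included SOX17, GATA6, CXCR4, CER1, CST1, T and EOMES, and the genes called lower included LHX5, SOX21, DLL1 and LRAT. KDM6B, whose row also receives the reads of the transgene that match the gene, was 3.45, 158, 212, 248 and 282 FPKM at Days 0 to 4. It was 2.40 FPKM in the mutant line without Dox and 454 with Dox. The induced RNA was therefore present on both days, and Day 3 was 1.17 times Day 2 with intervals apart but below the fold required.

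**Figure D1:**
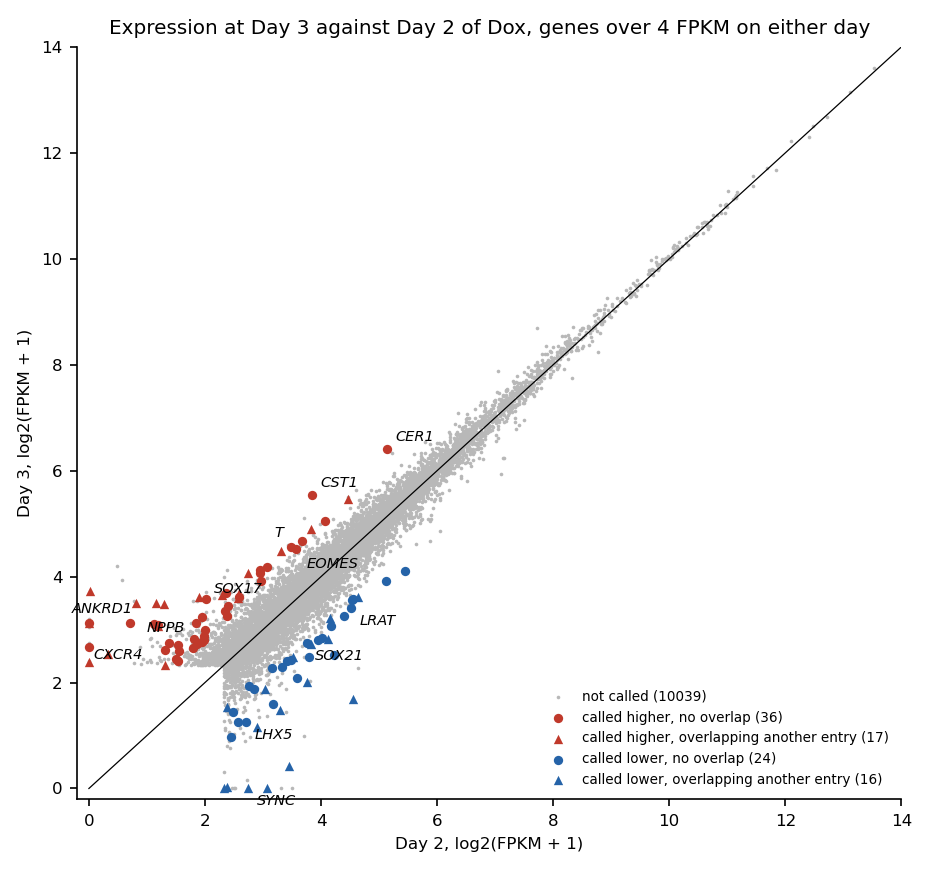
Expression at Day 2 (horizontal) and Day 3 (vertical) of Dox, as log2(FPKM + 1), for the 10132 genes over 4 FPKM on either day, with genes called higher in red, genes called lower in blue, and triangles for entries whose locus overlaps another expressed entry. The 53 and 40 called genes lie off the diagonal, mostly at low levels, while CER1 and CST1 stand out at higher levels.

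The definitive endoderm list held the clearest group of rises. Of its 25 genes, 15 passed 4 FPKM on either day, 5 of them were called higher (0.523% of all genes) and none lower, and 12 were above their Day 2 level (56.1% of all genes). SOX17, a transcription factor required for endoderm, was listed at 0 FPKM at Days 0 and 1 and was 3.05 at Day 2 (interval 1.86 to 4.24), 10.9 at Day 3 (8.19 to 13.5) and 20.3 at Day 4. About 21.0 reads at Day 2 and 80.0 at Day 3 lay behind these values, and both libraries of the mutant line were at 0. SOX17 therefore appeared at Day 2 and rose 3.57-fold in the next day. GATA6, a zinc-finger factor of endoderm, was at 0 FPKM at Days 0 and 1, 2.52 at Day 2 (1.57 to 3.48), 6.11 at Day 3 (4.44 to 7.79) and 14.8 at Day 4, with 0.147 and 0 in the mutant line. Its course resembled that of SOX17 with a ratio of 2.42 in this step.

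CER1, a secreted inhibitor of NODAL, BMP and Wnt ligands, was the most abundant gene called higher. It was 0 FPKM at Day 0, 1.85 at Day 1, 34.0 at Day 2 (24.0 to 38.8), 84.1 at Day 3 (63.4 to 84.4) and 134 at Day 4, against 1.62 and 0.924 FPKM in the mutant line without and with Dox. Its Day 4 value lies outside its own interval, whose upper bound is 132. CST1, which encodes a secreted cysteine protease inhibitor, was 0, 1.35, 13.4, 45.6 and 62.5 FPKM at Days 0 to 4 and 0 in both mutant libraries. Its ratio in this step was 3.41. CXCR4, the receptor for the chemokine CXCL12 and a surface marker of endoderm, was level between Day 1 (1.27 FPKM) and Day 2 (1.47), then reached 5.11 at Day 3 and 14.1 at Day 4. Its ratio in this step was 3.48, on about 9.29 and 34.5 reads, while SOX17 and CER1 were already above their Day 1 levels at Day 2.

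Other endoderm genes were higher at Day 3 without passing the rule. FOXA2, a forkhead factor of endoderm, was 14.8 FPKM at Day 2 (11.7 to 17.8) and 20.4 at Day 3 (17.1 to 23.7), and the intervals overlapped. GATA4, a relative of GATA6, was 3.16 and 6.11 FPKM, also with overlapping intervals. LEFTY2, an inhibitor of NODAL, was 12.3 and 17.1 FPKM. OTX2 (44.8 and 43.0 FPKM) and KIT (13.8 and 13.3), which endoderm shares with other early cells, differed by less than their intervals. The markers of the Wnt pathway also stayed within their intervals: DKK4, a secreted Wnt inhibitor, was 8.98 FPKM at Day 2 (4.51 to 12.5) and 13.0 at Day 3 (7.15 to 17.9), and the receptor FZD2 was 13.4 (9.86 to 16.7) and 17.8 (13.5 to 21.5). DKK4 was listed at 0 at Days 0 and 1 and in both mutant libraries, so its appearance fell between Day 1 and Day 2, whereas FZD2 was 5.37 FPKM at Day 0 and 11.8 FPKM at Day 4. Also low at Day 3 were HHEX, at 3.09 FPKM, and PRDM1, at 1.11.

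**Figure D2:**
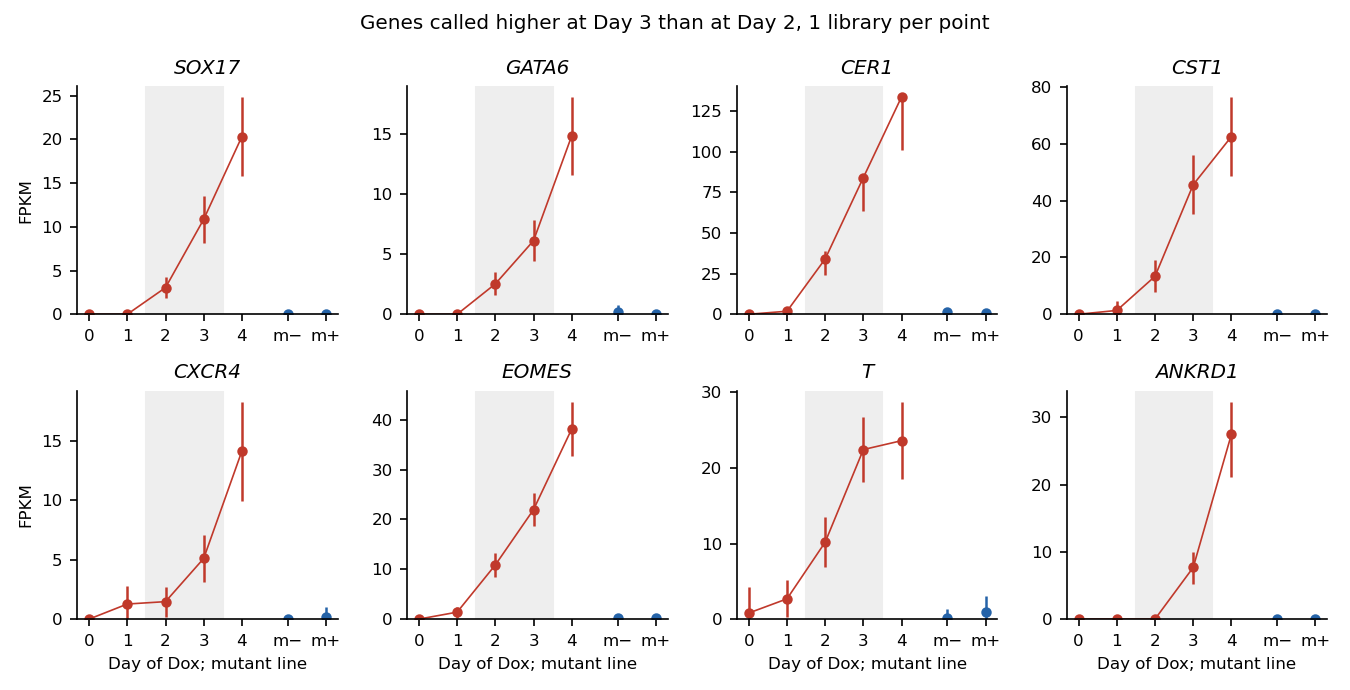
FPKM of 8 genes called higher at Day 3, in the JMJD3c-hESCs at Days 0 to 4 of Dox (red) and in the mutant line without (m−) and with (m+) Dox (blue), with vertical bars for the 95% Cufflinks interval of each library and the step from Day 2 to Day 3 shaded. SOX17, GATA6, CER1, CST1, EOMES and T had left the baseline by Day 2, ANKRD1 was listed at 0 until Day 3, and the mutant line was at or near 0 for each.

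The mesendoderm and primitive streak list held 2 further rises. Of its 24 genes, 11 passed 4 FPKM, 2 were called higher (0.523% of all genes) and none lower (0.395%). Of the 11, 9 were above their Day 2 level (56.1% of all genes). The median log2 ratio was 0.60 against 0.04 over all genes. T (hg19 chr6:166571144-166582188, minus strand), the transcription factor of nascent mesoderm, was 0.804, 2.68, 10.2, 22.4 and 23.6 FPKM at Days 0 to 4 and 0.133 and 0.892 in the mutant line. Most of its rise lay in the steps to Day 2 and Day 3, and the Day 3 interval (18.2 to 26.7) overlapped that of Day 4 (18.5 to 28.8). EOMES, a T-box factor needed for endoderm, was 0, 1.39, 10.9, 22.0 and 38.2 FPKM and was higher again at Day 4, unlike T. EOMES passed the fold narrowly, with a ratio of 2.02. MIXL1 (15.2 and 23.5 FPKM at Days 2 and 3) and LHX1 (6.42 and 11.2), which are homeobox genes of the streak and its anterior part, had intervals apart but ratios under 2. The Wnt target SP5 was 6.78 and 11.4 FPKM, and GSC, a marker of the organiser, was 3.53 and 6.05. FGF8 went the other way, at 4.99 and 3.55 FPKM with overlapping intervals. CHRD, a BMP antagonist of the organiser, was called higher at 4.98 and 11.9 FPKM, but its locus overlaps that of EIF2B5, which was at 18.9 and 18.7 FPKM.

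Among the starts whose locus overlaps no other expressed entry, the highest at Day 3 were ANKRD1 and NPPB. ANKRD1 (hg19 chr10:92671853-92681033, minus strand) encodes a nuclear ankyrin-repeat cofactor and is a known target of YAP and TEAD. It was listed at 0 FPKM at Days 0, 1 and 2 and in both mutant libraries, reached 7.69 FPKM at Day 3 (5.28 to 9.98, about 41.9 reads) and 27.5 FPKM at Day 4. At the depth of Day 2, 3 reads would have given 0.588 FPKM, so a lower level at Day 2 could have been missed. NPPB, which encodes the precursor of B-type natriuretic peptide, was 0, 0.764, 0.631, 7.69 and 18.4 FPKM at Days 0 to 4, on only about 13.4 reads at Day 3. FLRT3, a transmembrane protein of the endoderm list, was 0, 0.398, 0.660, 2.55 and 5.79 FPKM. Under 1 FPKM at Days 0, 1 and 2 were 8 of the 17 starts, and ANKRD1, NPPB and FLRT3 were among the 5 of these that were also at 1 FPKM or more at Day 4. LIX1L and ST20-MTHFS were the other such entries. NKX2-2, a homeobox factor, was 1.08 FPKM at Day 3 on about 7.10 reads and 0.651 at Day 4. SHISA8 was 3.08 FPKM at Day 3 and listed at 0 on every other day of the JMJD3c-hESCs. The replication-dependent histone HIST2H2AC was also a start, but it was 7.21 and 6.41 FPKM at Days 0 and 1 and 0 at Days 2 and 4, and its Day 3 value of 5.37 rested on about 4.37 reads. DKK1, a secreted Wnt inhibitor, stayed just under the line, being 0 until Day 2, 0.915 at Day 3 and 2.33 at Day 4.

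Promoter sequences are shown for 4 genes called higher, to show what the 250 bases before their start sites hold: ANKRD1 as the start described above, T and CER1 as streak and endoderm genes with different content, and IGFBP6 as another large rise. They are from RefSeq on GRCh38.p14, 5′ to 3′ on the strand of the gene, and capitals mark matches on either strand to short letter strings of 6 factor families, spelled out after the sequences. No 2 matches overlapped in these promoters. Positions are counted to -1 at the base before the start site. ANKRD1 lies at chr10:90921088-90921337 (minus strand), T, which RefSeq names TBXT, at chr6:166167852-166168101 (minus strand, the second of 2 listed starts), IGFBP6 at chr12:53097417-53097666 (plus strand) and CER1 at chr9:14722734-14722983 (minus strand).
ANKRD1: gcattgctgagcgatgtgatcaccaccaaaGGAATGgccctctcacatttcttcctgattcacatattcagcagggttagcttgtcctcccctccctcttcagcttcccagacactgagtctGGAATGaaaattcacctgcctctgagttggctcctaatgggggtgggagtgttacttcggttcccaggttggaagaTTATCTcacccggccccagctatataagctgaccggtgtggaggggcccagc
T: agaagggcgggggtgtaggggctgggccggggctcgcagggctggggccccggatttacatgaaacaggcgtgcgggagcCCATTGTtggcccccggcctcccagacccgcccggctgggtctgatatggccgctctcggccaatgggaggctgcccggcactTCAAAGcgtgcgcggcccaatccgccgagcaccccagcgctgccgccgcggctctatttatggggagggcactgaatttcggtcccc
IGFBP6: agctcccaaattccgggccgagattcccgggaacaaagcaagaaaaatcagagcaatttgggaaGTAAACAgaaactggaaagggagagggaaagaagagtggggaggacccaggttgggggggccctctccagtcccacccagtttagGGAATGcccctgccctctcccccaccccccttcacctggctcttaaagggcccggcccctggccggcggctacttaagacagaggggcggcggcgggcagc
CER1: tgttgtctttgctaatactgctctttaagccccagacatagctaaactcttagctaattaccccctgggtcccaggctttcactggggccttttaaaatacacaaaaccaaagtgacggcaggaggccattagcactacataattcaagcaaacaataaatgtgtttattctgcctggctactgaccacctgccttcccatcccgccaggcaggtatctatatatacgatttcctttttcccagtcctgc
The ANKRD1 promoter held the TEAD letters CATTCC at -220 and -128, and the GATA letters AGATAA at -52. The T promoter printed here held the SOX letters ACAATGG at -170, and the other listed start of T held none of the 6. It also held the TCF/LEF letters CTTTGA at -87. The IGFBP6 promoter held the FOX letters GTAAACA at -186 and the TEAD letters at -101. The CER1 promoter held none of these, nor the T-box letters AGGTGTG. Each position is a description of the sequence and not of binding.

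A promoter was found for 40 of the 53 genes called higher and 30 of the 40 called lower. Of all 35116 promoters, 11.9% held the TEAD letters, 11.2% the TCF/LEF letters, 9.17% the GATA letters, 3.84% the T-box letters, 2.98% the FOX letters and 2.62% the SOX letters. Counting genes, 14.3% of all held the TEAD letters in a promoter, and 5 of 40 genes called higher and 3 of 30 called lower did. The TCF/LEF letters stood in 13.5% of all genes, 5 of 40 called higher and 1 of 30 called lower. The GATA letters stood in 11.1% of all genes, 3 of 40 called higher and 3 of 30 called lower. These shares in the genes called higher were near the background. The TEAD letters were added to the search after the values were seen.

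Other genes called higher included receptors, matrix and signalling genes, which apart from IGFBP6 and DUSP4 are named here after their values were seen. IGFBP6, which binds insulin-like growth factor 2, was 0, 1.16, 1.28, 7.52 and 9.34 FPKM at Days 0 to 4. Its Day 3 interval (4.51 to 10.5) lay above that of Day 2 (0 to 2.88), on about 25.2 and 4.03 reads, and the mutant line was at 1.41 and 0.645 FPKM. Tenascin-C (TNC), a matrix glycoprotein, was 2.87 FPKM at Day 2 and 8.43 at Day 3, and COLEC12, a scavenger receptor, was 1.60 and 5.67. The protocadherin PCDH10 was 2.99 and 6.95 FPKM and the receptor kinase EPHA2 was 6.85 and 14.1. These 4 were higher again at Day 4, at 24.6, 12.9, 11.0 and 22.6 FPKM. S1PR3, a receptor for sphingosine 1-phosphate, was 1.89 and 4.32 FPKM, and the prostaglandin transporter SLCO2A1 was 2.62 and 5.59. DUSP4, a phosphatase that acts on MAP kinases, was 0.843, 1.69, 2.85, 5.77 and 7.52 FPKM at Days 0 to 4. It was the only gene of 20 tested in the FGF and ERK feedback list to be called, although DUSP6 (78.1 and 117 FPKM) and SPRY4 (37.5 and 48.5) had intervals apart as well. The kinase PLK2 (4.05 and 9.17 FPKM), the antiproliferative gene BTG2 (2.97 and 6.37) and the Dishevelled-binding DACT1 (5.03 and 11.3) were also called higher. DACT1 and PLK2 had been 5.53 and 8.84 FPKM at Day 1, so both were lower at Day 2 than on the days beside it.

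Among abundant genes, CER1 was the only gene that differed by over 2-fold beyond the intervals. Of 1759 genes over 50 FPKM on either day, 84 were higher at Day 3 with intervals apart and 28 were lower. The 84 and 28 leave out entries whose FPKM lay outside its own interval. Over all 10132 genes, with such entries kept, 219 were higher with intervals apart (2.16%) and 129 lower (1.27%). Vimentin (VIM), the intermediate filament of mesenchymal cells, was 46.9, 108, 211, 413 and 704 FPKM at Days 0 to 4. Its ratio of 1.96 in this step fell just short of the rule. It was also 44.1 FPKM in the mutant line without Dox and 138 with Dox. Fibronectin (FN1) was 40.6 FPKM at Day 2 and 67.9 at Day 3, and the protease inhibitor SERPINE2 was 54.3 and 91.8. FN1 had been at a like level at Days 0 and 1 (44.4 and 36.2 FPKM), whereas SERPINE2 was lower on those days (29.3 and 30.3). Both had intervals apart in this step and were chosen after their values were seen. Of the 18 genes of the epithelial-mesenchymal transition list, 11 were tested, none was called, and all 11 were above their Day 2 level (56.1% over all genes), with a median log2 ratio of 0.16. E-cadherin (CDH1) was 89.8 and 90.1 FPKM and N-cadherin (CDH2) 30.0 and 36.0, and SNAI2 was listed at 0 on both days. In the list of extracellular matrix and integrin genes, 21 were tested and none was called, with a median of 0.13.

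The genes called lower included the developmental regulators LHX5, SOX21 and DLL1. LHX5 (hg19 chr12:113899839-113909877, minus strand), a LIM homeobox factor of the forebrain, was 3.49, 5.21, 5.56, 1.38 and 0.750 FPKM at Days 0 to 4, and its Day 3 interval (0.692 to 1.98) lay below that of Day 2 (4.01 to 7.08). SOX21, an HMG-box factor of neural progenitors, was 5.86, 12.5, 12.5, 5.68 and 4.10 FPKM, so its Day 3 level was close to that of Day 0. Both fell in this step from like levels at Days 1 and 2. SOX21 was named after its values were seen. DLL1, a ligand of Notch, was 5.74 and 2.84 FPKM at Days 2 and 3 and 4.00 at Day 4. In the mutant line without and with Dox, LHX5 was 2.19 and 1.37 FPKM, SOX21 was 8.17 and 5.01, and DLL1 was 5.14 and 5.77. SOX1, an early neural gene, was a stop at 1.03 and 0.223 FPKM, on about 13.0 and 2.99 reads. NPTX1, a secreted neuronal pentraxin, was a stop as well, at 1.64 and 0.532 FPKM. OLIG3, a bHLH factor of the nervous system, lay just outside the rule with 20.4 and 10.3 FPKM. In the list of 29 neural and neural crest genes, 10 were tested and none was called. Of these 10, 8 were above their Day 2 level (56.1% of all genes), and the median log2 ratio was 0.14. Intervals were apart upwards in 2 of the 10, TUBB3 and the intermediate filament gene NES (125 and 151 FPKM), and downwards in none. PAX6 was 6.43 and 2.72 FPKM with wide intervals that overlapped, and the neuronal tubulin TUBB3 was 106 and 150 with intervals apart. LHX5 and SOX21 are not on that list.

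Other genes called lower had varied roles. LRAT, which esterifies retinol, was 20.6, 26.0, 22.0, 9.60 and 6.37 FPKM at Days 0 to 4, with 34.4 and 41.2 in the mutant line. SESN3, a stress-inducible sestrin, was 6.33, 19.9, 15.2, 6.14 and 5.11 FPKM. The zinc-finger gene BNC2 was 8.23, 16.1, 11.0, 3.22 and 5.16 FPKM. These 3 were at or above their Day 2 level already at Day 1, and LRAT and SESN3 were named after their values were seen. MRPL17, a protein of the mitochondrial ribosome, was 5.09, 4.68, 17.7, 4.77 and 4.41 FPKM instead, so that only the Day 2 library stood high among the 5 days. CSAD, an enzyme of taurine synthesis, showed the same shape at 5.93, 3.75, 12.6, 3.02 and 5.23 FPKM, as did PHOSPHO2 at 2.84, 1.84, 8.75, 1.79 and 2.91 and PIK3C2B, a lipid kinase, at 3.43, 4.92, 7.97, 2.02 and 3.08. The locus of CSAD overlaps ZNF740 (7.36 and 8.76 FPKM at Days 2 and 3), and that of PHOSPHO2 overlaps KLHL23 (37.7 and 29.3). MRPL17 was 25.4 and 29.0 FPKM in the mutant line, above all 5 days of the JMJD3c-hESCs.

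**Figure D3:**
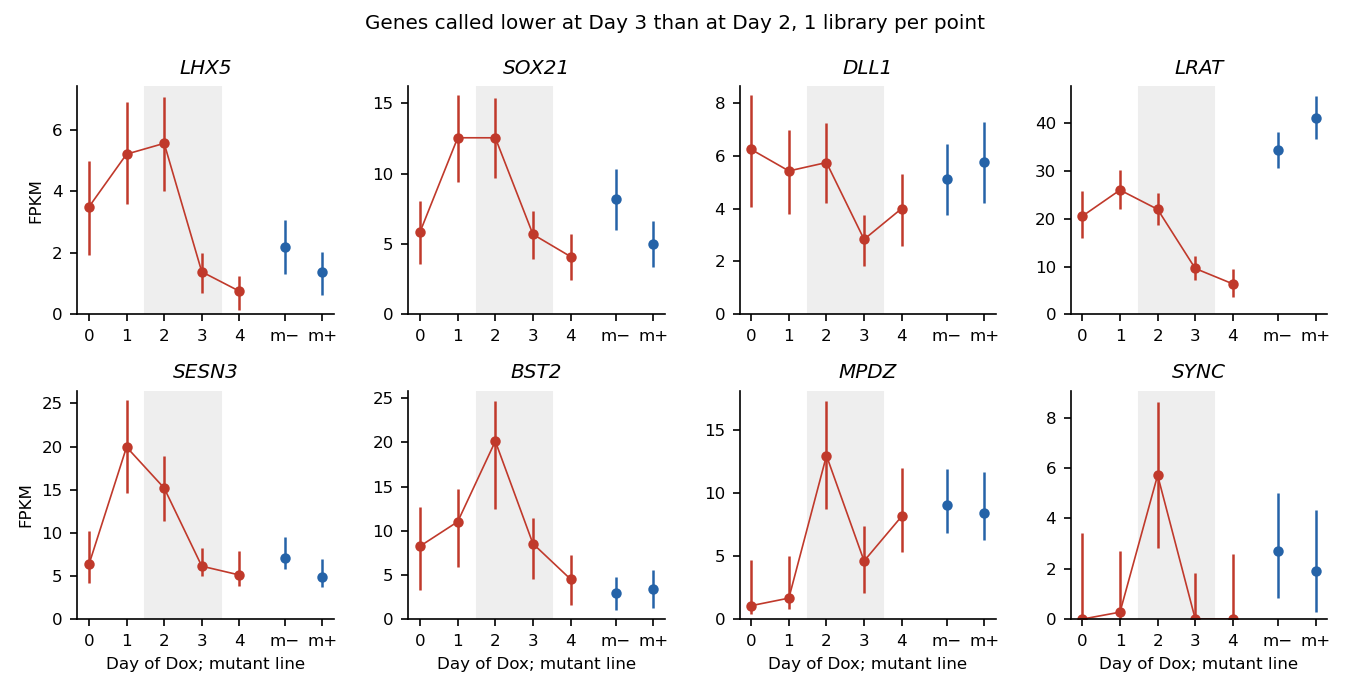
FPKM of 8 genes called lower at Day 3, drawn as for the genes called higher, with 95% Cufflinks intervals as vertical bars and the step from Day 2 to Day 3 shaded. LHX5, SOX21, LRAT and SESN3 fell from a level already present at Day 1, whereas MPDZ and SYNC were high at Day 2 but not at Day 1.

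This Day 2 pattern was common among the genes called lower. Day 2 was the highest of the 5 days in 29 of the 40 (72.5%), against 15.4% of all 10132 genes, Day 3 was the lowest in 22 (55%, against 10.4%), and 3 of the 40 fell in each of the steps after Day 1 (7.93% of all genes did). Among the genes called higher, Day 2 was the lowest of the 5 days in 23 of 53 (43.4%; 16.6% of all genes), Day 3 was the highest in 20 (18.5% of all genes), and 19 went up in each of the steps after Day 1 (8.43% of all genes). The rule itself favours a low or a high Day 2, so these shares are given as a description. These 19 included SOX17, GATA6, CER1, CST1, CXCR4, EOMES and T. LIN7A, RCAN2 and POU3F1 were instead higher at Day 1 than at Day 2: LIN7A, a scaffold protein, was 3.25, 7.63, 2.73, 11.2 and 2.92 FPKM at Days 0 to 4. RCAN2, a regulator of calcineurin, was 3.18, 4.25, 1.17, 7.66 and 4.58. When the fold had to be passed against Day 1 as well as Day 2, 29 genes were higher and 15 lower.

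The stops were low genes, and several rested on few reads. Of the 21, 8 were listed at 0 at Day 3, 15 were under 1 FPKM at Day 4 as well, and 10 had at least 10 estimated reads at Day 2. For 3 of the 21, which were not in the annotation, reads could not be estimated. Among those that overlap no other entry, DOCK3, a guanine nucleotide exchange factor of neurons, had the most reads, with 2.00 FPKM at Day 2 (1.49 to 2.52) and 0.815 at Day 3 (0.498 to 1.13) on about 56.8 and 24.8 reads. It was 0.920, 1.23 and 1.06 FPKM at Days 0, 1 and 4, so Day 2 stood above the other days. TMEM88B was 1.95, 2.60, 3.22, 0 and 0 FPKM at Days 0 to 4, with a wide interval at Day 2 (0.631 to 5.68), and 2.84 and 1.08 FPKM in the mutant line. CST5, a relative of CST1, was a stop at 1.68 FPKM on 3.00 reads and was 0 in each of the other 6 libraries. EDN1, the precursor of endothelin 1, was 1.02 FPKM at Day 2 on about 5.99 reads, and DRD4, a dopamine receptor, was 1.32 on about 5.09. A stop that rests on so few reads is not distinguishable at this depth from a low level that was missed.

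Entries whose locus overlaps that of a neighbour made up part of the calls. The locus overlapped another entry over 1 FPKM in 17 of the 53 genes called higher and 16 of the 40 called lower, against 22.7% of the genes over 4 FPKM. It did so in 8 of the 17 starts and 8 of the 21 stops, against 19.5% of all 20187 entries. In 3 pairs the entries moved in opposite directions and both were called. CTD-3074O7.11 went from 7.43 to 0.0105 FPKM while BBS1, which it overlaps, went from 1.29 to 7.39. CDRT4 went from 6.46 to 1.24 FPKM while the read-through entry TVP23C-CDRT4 went from 0.00142 to 4.22, and DNAJC25-GNG10 went from 4.00 FPKM to near 0 while GNG10 went from 3.89 to 11.5. AP000275.65 had the largest log2 ratio of all, at 3.72, while C21orf59 at the same locus was 65.1 and 43.7 FPKM. SYNC (5.71 FPKM to near 0) overlaps RBBP4, which was 139 and 146 FPKM, and RSC1A1 (4.19 to 0.0169) overlaps DDI2. How Cufflinks divided reads between such entries was not tested, and these values are not read as starts or stops of transcription.

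Core pluripotency genes were expressed on both days. POU5F1 was 684 FPKM at Day 2 and 720 at Day 3, and NANOG was 84.3 and 95.3, each with overlapping intervals. SOX2, a factor shared by pluripotent and neural cells, was 107 FPKM at Day 2 (98.6 to 116) and 80.9 at Day 3 (73.6 to 88.3), with intervals apart. Of the 30 pluripotency genes, 26 were tested and none was called, 18 were below their Day 2 level (43.9% over all genes), and the median log2 ratio was -0.10. Intervals were apart downwards in 6 of the 26, among them SOX2, PODXL (202 and 169 FPKM), TERF1 (129 and 101), TRIM71 (91.7 and 81.9) and TET1 (10.7 and 8.19). None of the 26 had intervals apart upwards. In the mutant line SOX2 was 99.6 FPKM without Dox and 74.6 with Dox. The median log2 ratio of the 26 genes with Dox to without Dox in that line was -0.25.

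Signalling lists showed 1 call or none each, where 0.523% of all genes were called higher and 0.395% lower. In the NODAL pathway, CER1 was the 1 gene called of 15, and the ligand NODAL was 45.0 FPKM at Day 2 and 60.0 at Day 3, with intervals apart and Day 0 and Day 1 levels of 68.2 and 56.6. In the BMP pathway, CHRD was called of 14, the target ID3 was 107 and 156 FPKM, and BMP2, which stayed under 4 FPKM, was 1.46 and 3.16, while ID1 (59.5 and 57.2) and BMP4 (7.43 and 6.76) differed by less than their intervals. In the Wnt lists, none of 15 targets and feedback genes, 13 receptors and 3 ligands was called, with medians of 0.10, 0.11 and 0.39. AXIN2, a general Wnt target, was 13.2 and 9.97 FPKM with overlapping intervals, and LEF1 was 1.44 and 1.35. None of 14 planar cell polarity genes was called (median 0.08). In the Notch pathway DLL1 was the 1 gene called of 11, and HES1 was 16.0 and 19.6 FPKM.

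Among the remaining lists, all of 11 tested immediate early genes were above their Day 2 level (56.1% of all genes), with a median log2 ratio of 0.46. ANKRD1 is the called member of that list, which also holds the YAP targets CYR61 (12.3 and 19.1 FPKM, intervals overlapping) and CTGF (10.9 and 11.6). EGR1 was 6.03 and 9.80 FPKM with intervals apart, and FOS was 2.41 and 6.78 with intervals overlapping. Of 23 cholesterol synthesis genes, 21 were above their Day 2 level with a median of 0.24, and the called member, mevalonate kinase (MVK, 5.68 and 15.7 FPKM), overlaps MMAB. The lists of 30 cell cycle genes (median 0.06), 77 cytosolic ribosomal protein genes (0.01), 25 glycolysis and hypoxia genes (0.06), 16 ATF4 stress response genes (0.14), 14 p53 targets (-0.04), 13 heat shock genes (0.07) and 13 mitochondrially encoded genes (0.03) held no called gene. Of 13 replication-dependent histones, HIST2H2AC was called, in libraries made from poly(A) RNA.

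**Figure D4:**
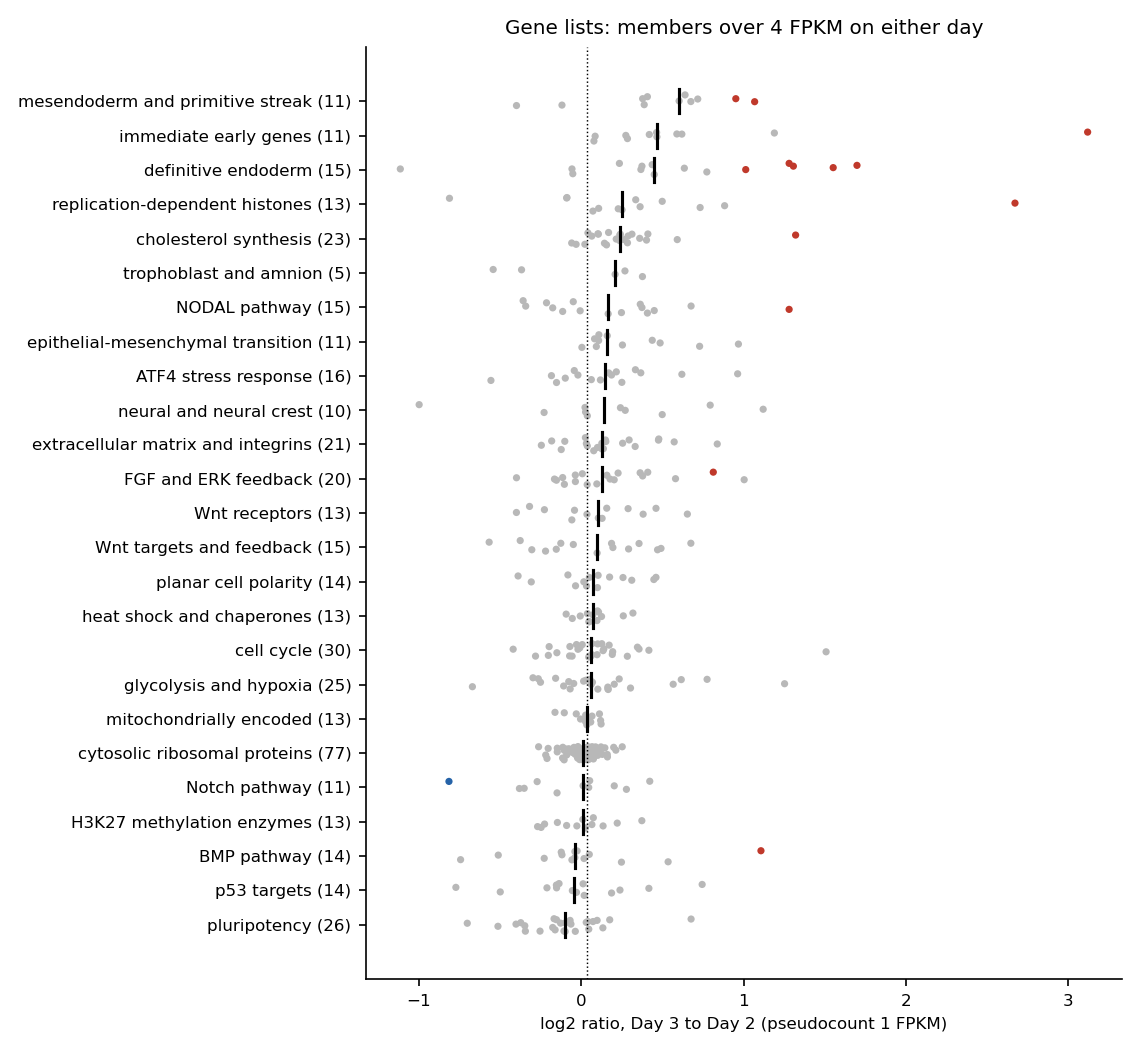
Log2 ratio of Day 3 to Day 2 for each member over 4 FPKM on either day (points, with red for called higher and blue for called lower), by gene list with the number drawn in brackets, with the list median as a black bar and the median of all genes (0.04) as a dotted line. The mesendoderm, immediate early and definitive endoderm lists have the highest medians (0.60, 0.46 and 0.45), and the pluripotency list the lowest (-0.10).

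On the lists for other cell types (trophoblast and amnion, lateral mesoderm, heart and endothelium, neural and neural crest) no gene was called higher. Only 5, 3 and 10 of their genes were tested, and 0.523% of all genes were called higher, so the absence of calls is near that share. Some keratins were abundant. NPPB, ANKRD1 and POU3F1, which were called higher, are on none of these lists. Of 20 trophoblast and amnion genes, 5 were tested, of which 3 were above their Day 2 level and 2 had intervals apart upwards and none downwards. The list had 7 genes at 0 on each day and a summed level of 709 FPKM at Day 2 and 846 at Day 3. That sum came mainly from the epithelial keratins KRT8 (436 and 525 FPKM) and KRT18 (161 and 186), and from KRT19 (84.7 and 110, and 128 at Day 4). KRT19 and KRT8 were the genes with intervals apart, although the KRT8 values lie outside their own intervals. The part of such cells in the results above was not tested. GATA3 was 1.01 and 0.711 FPKM, KRT7 was 4.00 and 2.43, and the hormone subunit CGA was at 0 on both days. Of 19 genes of lateral mesoderm, heart and endothelium found, 3 were tested, 7 were at 0 on each day, and the sum was 23.2 and 27.3 FPKM. HAND1 was at 0 on both days, and KDR was 5.51 and 5.37 FPKM. The 39 HOX genes summed to 7.11 FPKM at Day 2 and 5.83 at Day 3, and none reached 4 FPKM. The proneural gene NEUROG1 was 0.429 FPKM at Day 2 and 0 at Day 3.

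The direction of the calls was then read in libraries that the comparison did not use. Of the 53 genes called higher, 39 (73.6%) were above their Day 1 level at Day 4, against 47.8% of all 10132 genes, and 24 (45.3%) were more than 2-fold above it and over 4 FPKM, against 3.39%. Of the 40 called lower, 27 (67.5%) were below their Day 1 level at Day 4, against 52.1%, and 10 (25%) were under a ratio of 0.5, against 4.49%. The median log2 ratio of Day 4 to Day 1 was 0.62 for the genes called higher, -0.33 for those called lower and -0.02 for all genes. Among entries that overlap no other, 30 of 36 called higher were above and 20 of 24 called lower were below their Day 1 level. Of all 7828 tested genes without overlap, 3739 were above and 4088 below it. In the mutant line the genes of each set lay on both sides. With Dox, 23 of the 53 genes called higher were above and 27 below their level without Dox (50.6% and 49.2% of all genes), none was more than 2-fold above it and over 4 FPKM (0.888% of all genes), and the median log2 ratio was 0.00. For the genes called lower, 22 were above and 18 below, 1 was over 2-fold above (2.5%), 2 were under a ratio of 0.5 (5%, against 1.17% of all genes), and the median was 0.05. These counts compare single libraries, and the lines were not induced for the same lengths of time in this comparison.

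**Figure D5:**
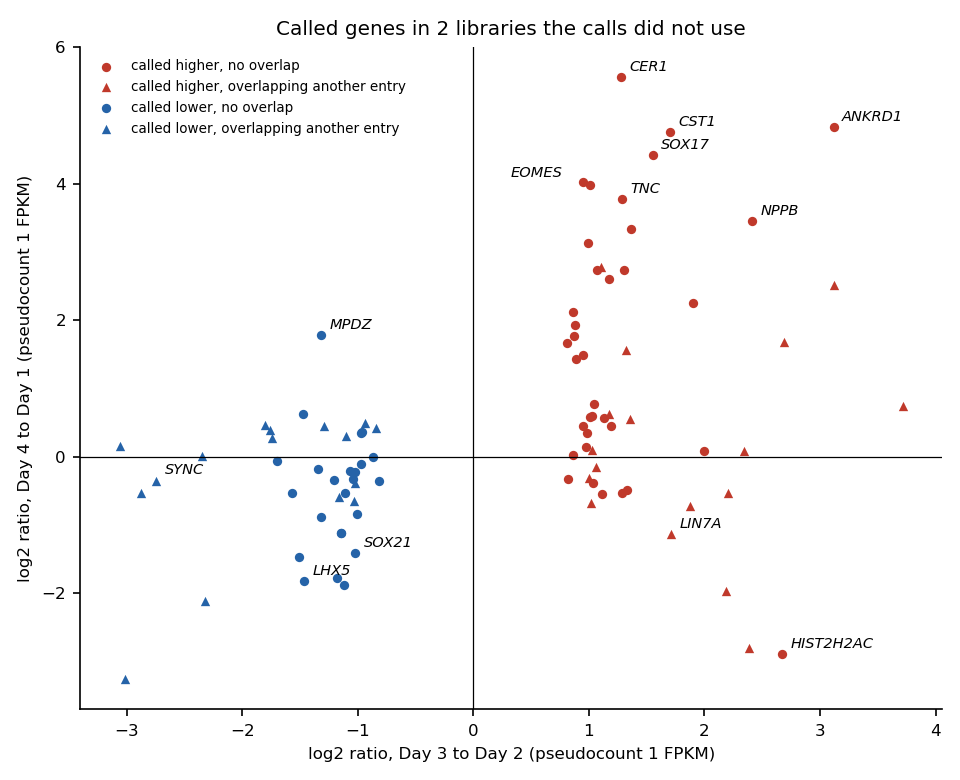
Log2 ratio of Day 3 to Day 2 (horizontal) and of Day 4 to Day 1 (vertical) for the genes called higher (red) and lower (blue), with triangles for entries whose locus overlaps another expressed entry. CER1, CST1, SOX17, ANKRD1 and NPPB lie high on both axes, while HIST2H2AC and LIN7A were called higher and lie below 0 on the vertical axis.

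The rule has a fold threshold, and genes stood close to it on both sides. Just inside were GPR63 (ratio 2.02), EOMES (2.02), DUSP4 (2.02) and VAT1L (2.03) upwards and RECQL5 (0.494) and DLL1 (0.494) downwards. Just outside, with intervals apart, were DOCK6 (1.99), MCOLN1 (1.97), VIM (1.96) and TGFB1 (1.96) upwards and OLIG3 (0.507) downwards.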

How the data were processed

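RNA-seq values of 7 samples were used, 1 library per condition, and Day 3 was compared with Day 2 of the JMJD3c-hESCs. Per the labels, poly(A) RNA was made into directional libraries, and the authors sequenced single-end reads of 150 bases on a MiSeq, mapped them to hg19 with TopHat2 2.0.13 and calculated the deposited FPKM values and their 95% bounds with Cufflinks 2.1.1 (CASAVA 1.4 is also named in the submitters' processing notes). The annotation release, the Cufflinks options and the use of strand in counting are not given in the sources used here, so reads of overlapping or antisense genes may not be told apart. Some FPKM values lie outside their own interval (140 entries at Day 2 and 151 at Day 3), and an entry listed at 0 often has an interval of 0 to 0, which adds no uncertainty.

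Ratios, calls, starts and stops were computed as described above with Python 3.11.15, numpy 2.4.6, pandas 2.3.3 and matplotlib 3.10.9. The code of the rule was checked on simulated reads with counting error only. That check held no variation between cultures and no overlapping entries, so it cannot speak to either. The fold and FPKM cutoffs are those of the study, and the interval condition was added because there are no replicates. No statistical test was made. Depth at Day 2 was estimated from single-exon genes, after taking 200 bases from the transcript length of GENCODE release 44 on GRCh37, the assembly of hg19. Depths of the other libraries were scaled to it by the ratios of low values. The estimate covers counting error only. Estimated reads use the same lengths, limited to the locus in the files. Loci overlapping another entry over 1 FPKM on either day were marked. For the markers, the gene lists, KDM6B, POU5F1, NANOG and SOX2, the entry with the highest mean was used where a name had several. Rises, falls, starts and stops were taken entry by entry.

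The named genes were the 4 markers, the 12 largest rises and falls, the 10 highest starts and stops (without short, small-RNA and read-through entries), called members of the gene lists, and KDM6B, POU5F1, NANOG and SOX2. Others are named because their values, seen first, bear on a list, an overlap or a threshold. The comparison, the 28 gene lists and the alternatives were chosen with earlier results of these data known, so no list is independent evidence. Alternatives changed the cutoff, fold, intervals, scaling, pseudocount, GC content, entries included and days compared. Some items are not reported here.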

Additional observations from a re-analysis of the deposited data

How the results depend on the processing

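No paired analysis was possible because each condition had 1 library. The counts of genes called higher and lower (53 and 40) stayed within 1.5 times under both scalings, a cutoff of 1 FPKM, a pseudocount in the ratio, the GC correction, protein-coding genes alone, and without short entries or values outside their intervals. They were 25 and 21 with a cutoff of 10 FPKM, 103 and 76 with a fold of 1.5, 18 and 15 with a fold of 3, and 198 and 160 when intervals were not required, where starts and stops became 310 and 286. A line of 2 FPKM gave 29 starts. With the mean of Days 3 and 4 against that of Days 1 and 2, without intervals, the counts were 169 higher, 172 lower, 242 starts and 296 stops.

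Other alternatives were chosen after seeing the data. With the fold also passed against Day 1, 29 genes were higher and 15 lower, and with Day 1 on the same side of the line as Day 2 there were 8 starts and 12 stops. Without overlapping entries there were 36 higher, 24 lower, 9 starts and 13 stops, and with at least 10 estimated reads there were 12 starts and 10 stops. Reads could not be estimated for 1 start and 3 stops, which were not counted among these.

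The mesendoderm median (0.60) was 0.42 with a pseudocount of 4 and 1.21 for Days 3 and 4 against Days 1 and 2. In that comparison the definitive endoderm median was 0.89 and the pluripotency median -0.30. Values that changed sign included the neural and neural crest median, to -0.047, and the called gene HIST2H2AC, to a log2 ratio of -0.19. POU5F1, which was not called, also changed from a rise to a fall. So did an MRPS17 entry, a start at 0.179 and 2.55 FPKM. It overlaps another MRPS17 entry, which was at 22.4 and 23.8 FPKM at Days 2 and 3. The cause of these changes of sign was not tested. At this depth, genes near 1 FPKM rest on a few reads.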
